A study of Ulmus minor with 54 samples.

Results

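The comparison asked which transcripts of an elm leaf differed 1 h after beetle larvae had been placed on it. It set 6 libraries of fed leaves against 6 libraries of unfed leaves, out of 54 leaf libraries of the field elm, Ulmus minor, in 18 groups of 3. Fed leaves were CT, with larvae only, and PT, with simulated eggs 7 days earlier and then larvae. Unfed leaves were CC, with neither stimulus, and PC, with simulated eggs 7 days earlier only. All leaves were wild type and came from greenhouse trees 15 to 19 weeks old that descended from 1 clonal in vitro culture, so the labels give 1 plant genotype throughout. Each fed leaf received 5 neonate larvae of the elm leaf beetle, and each library comes from about 100 mg of leaf near the treated site. For simulated eggs a strip of epidermis was scraped away and oviduct secretion of gravid females was put on it, so wound and secretion came together. The labels do not say whether unfed leaves were handled with a brush, nor whether the 3 libraries of a group came from separate trees. The p-values therefore measure only the spread between these libraries, which may be technical.

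Leaves respond to chewing insects through the mechanical wound and through compounds in the insects' oral secretions. In plants studied for this, the wound hormone jasmonate accumulates soon after damage and turns on defence genes, such as those for protease inhibitors and for enzymes that make defensive metabolites, while growth and photosynthesis genes often fall. The first transcripts to move are commonly those of signalling proteins and transcription factors, ahead of the defence products. None of these functions could be looked up in these data. Reads had been counted on 237477 assembled sequences, 216675 contigs and 20802 scaffolds, but the table of the authors gives neither a gene name nor a sequence for any identifier. Each assembled sequence is called a transcript here, although 1 gene can be split over several of them. For the same reason the leaf label could not be checked against leaf marker genes, and the organism of a transcript, elm, beetle or microbe, is not given.

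A transcript was called leaf-expressed where its median over the 18 libraries of untreated C and CC leaves was at least 0.5 CPM (read counts scaled by the library's total). This held for 71158 of the 237477 sequences, the nearest on either side of the limit lying at 0.500091 and 0.499982 CPM. Of all sequences, 131927 passed the filter on low counts at 1 h, 71157 leaf-expressed and 60770 less abundant ones. The 12 libraries held 37022208 to 86534940 counted reads, and the other 42 libraries 14667334 to 93878963. Total counts were 6.16e+07 ± 1.57e+07 in fed and 5.13e+07 ± 7.55e+06 in unfed libraries (SD, n = 6 each; 2-sided exact permutation test within egg treatments, p = 0.215). The 10 most abundant transcripts of a library held 41.6% of the reads in replicate 2 of CT (95% exact binomial interval 41.58 to 41.61, counting error only), against 6.82% to 22.1% in the other 11. Replicate 1 of PC at 1 h, replicate 1 of P at 1 h and replicate 1 of CT at 24 h also stood apart from their groups. Many, but not all, of the counts and medians that turn on these libraries are repeated without them.

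At 1 h, 219 leaf-expressed transcripts were higher and 69 were lower in fed leaves (edgeR quasi-likelihood test with egg treatment as a block, called where the p adjusted by Benjamini-Hochberg over all 131927 transcripts was 0.05 or less, at any fold). These are 0.308% and 0.0970% of the leaf-expressed transcripts tested. Over all transcripts 416 were higher and 74 lower, or 0.315% and 0.0561%. The 219 leaf-expressed risers rose by a median of 1.31 on the log2 scale, with a range of 0.66 to 3.24. Among them, 168 rose at least 2-fold, 26 at least 4-fold and 2 at least 8-fold. Their mean level had a median of 4.36 CPM in fed and 1.61 CPM in unfed leaves. The 69 lower ones fell by a median of 1.00 on the log2 scale, with a range of 0.61 to 2.39. Of these, 33 fell at least 2-fold and 2 at least 4-fold, and their mean level had a median of 1.38 CPM in fed against 3.56 CPM in unfed leaves. Over all leaf-expressed transcripts the median log2 fold change was -0.05. In bulk tissue, fewer cells of a type and less RNA per cell cannot be told apart.

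The calls lay close to the threshold, and their number hung on single libraries. The lowest adjusted p among the leaf-expressed transcripts was 0.0227, and 123 of the 219 risers and 44 of the 69 fallers had an adjusted p above 0.04. With an unadjusted edgeR p of 0.05 or less, 4769 leaf-expressed transcripts were higher and 6058 lower. Within this class the excess of risers among the calls thus did not extend to the weaker differences. Among the less abundant transcripts 5953 were higher and 1603 lower at that p. Both classes are defined by the level in untreated leaves that include CC of 1 h, so these balances are in part built in. In place of the 288 leaf-expressed calls, the same test gave 0 without replicate 1 or 3 of CC, replicate 2 of PC, or replicate 2 or 3 of CT, with 8103 to 10580 at an unadjusted p of 0.05 or less. It gave 2 without replicate 1 of PT, 5 without replicate 2 of CC or replicate 3 of PT, 58 without replicate 3 of PC and 140 without replicate 2 of PT. It gave 780 without replicate 1 of CT and 1348 without replicate 1 of PC. DESeq2's Wald test on all 12 libraries called 1231 higher and 1144 lower, and all 288 transcripts were among them. The fold changes moved far less than the calls. Under 21 alternative settings all 219 risers stayed higher and all 69 fallers stayed lower, with a median of 1.22 to 1.45 for the risers and -1.09 to -0.93 for the fallers. The transcripts were chosen on the same 12 libraries, and every alternative reuses all or part of them. The kept directions are therefore largely built in, and they do not test the response.

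**Figure D1:**
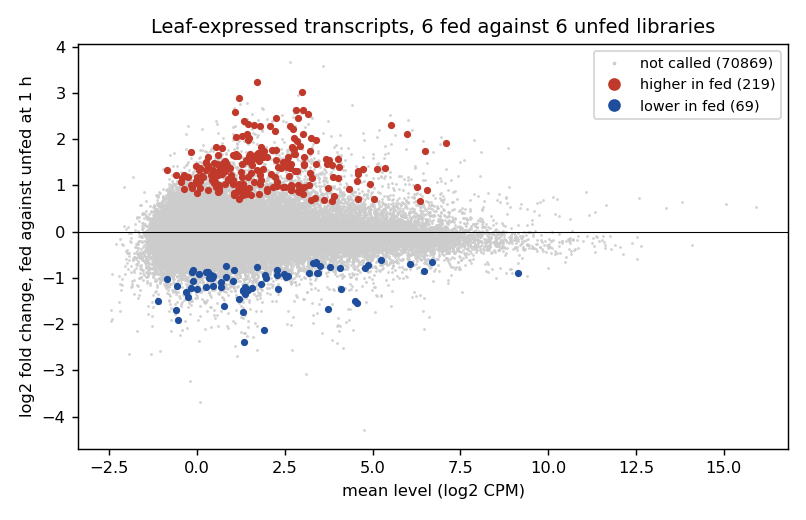
Log2 fold change of fed against unfed leaves at 1 h (vertical axis) against mean level in log2 CPM (horizontal axis) for the 71157 leaf-expressed transcripts tested. The 219 called higher (red) span 0.66 to 3.24 and the 69 called lower (blue) -2.39 to -0.61, in a cloud of uncalled transcripts (grey) centred near -0.05.

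The share called higher was close to the 0.308% of all leaf-expressed transcripts at every level below 20 CPM, and lower above it. The median level in untreated C leaves was 1.49 CPM over the risers and 1.72 CPM over all leaf-expressed transcripts. Sorted by their median over the 9 untreated C libraries, 0.336% of leaf-expressed transcripts under 1 CPM, 0.366% of those from 1 to 2 CPM, 0.304% from 2 to 5 CPM and 0.296% from 5 to 20 CPM were called higher. At 20 CPM or more, 7 of 6985 transcripts, or 0.1002%, were called higher and 10, or 0.143%, lower. Fallers were rarest at the low end, with 0.0331% of the transcripts under 1 CPM against 0.113% to 0.139% between 1 and 20 CPM. Scaffolds, which an assembler joins from several contigs, made up 37.4% of the risers and 14.5% of the fallers, beside 22.8% of all leaf-expressed transcripts tested. The 5 most abundant fallers held 73.5% of the summed level of all 69 in fed leaves, and the 5 most abundant risers 27.3% of that of the 219.

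Library by library, the risers' median was higher in every fed library than in any unfed one, with one pair of libraries close to each other. Relative to the mean of the 6 unfed libraries, their median log2 level was -0.11, -0.06 and -0.16 in the 3 CC libraries and 0.65, -0.19 and -0.08 in the 3 PC libraries. It was 0.74, 1.23 and 1.32 in CT and 1.48, 1.24 and 1.34 in PT. Replicate 1 of PC thus lay closer to replicate 1 of CT than to the other unfed libraries. The fallers stood at 0.08, 0.06 and 0.12 in CC, at -0.18, 0.19 and -0.21 in PC, at -0.70, -0.85 and -1.10 in CT, and at -1.10, -1.13 and -1.09 in PT. These medians describe transcripts that were chosen on the same 12 libraries. The summed level of the risers was 761 to 869 CPM in 5 unfed libraries and 1453 CPM in replicate 1 of PC. It was 1503 CPM in replicate 1 of CT and 2054 to 3184 CPM in the other fed libraries.

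**Figure D2:**
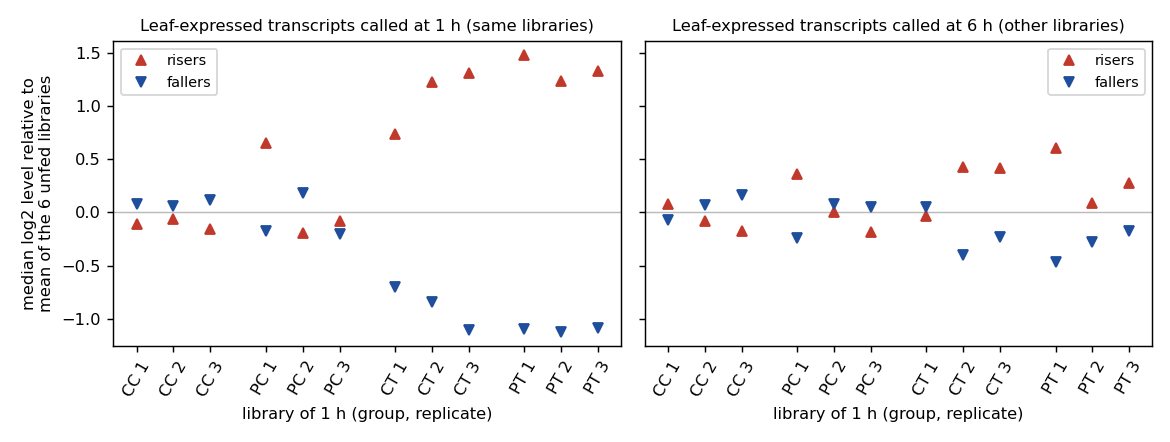
Median log2 level in each library of 1 h, relative to the mean of the 6 unfed libraries, for the risers (red) and fallers (blue) called at 1 h (left) and for those called at 6 h in other libraries (right). On the left the fed libraries lie at 0.74 to 1.48 for risers, with unfed replicate 1 of PC at 0.65, while on the right fed and unfed libraries overlap.

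Of the 219 risers, 109 had all 6 fed libraries above all 6 unfed ones, and of the 69 fallers 49 had all 6 below. Such a separation was found for 0.490% and 0.635% of all leaf-expressed transcripts tested, 349 above and 452 below. Within the leaf-expressed class more transcripts were thus separated downwards than upwards, although 219 calls were upwards and 69 downwards. Among the 60770 less abundant transcripts tested it was the reverse, with 494 above and 86 below. The leaf-expressed class is defined by a level in untreated leaves that include CC of 1 h. This favours transcripts that are lower in fed leaves, so nothing is read from either balance.

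Named by the smallest p among called leaf-expressed transcripts with separated libraries, scaffold14635 was the leading riser. It stood at 0.838, 0.785 and 0.865 CPM in CC and at 1.44, 0.862 and 0.729 CPM in PC. With larvae it stood at 2.06, 2.46 and 4.62 CPM in CT and at 5.81, 3.43 and 5.81 CPM in PT. The lowest fed library, replicate 1 of CT, lay above the highest unfed one, replicate 1 of PC. The transcript was 4.31-fold higher in fed leaves (log2 fold change 2.11 ± 0.25 SE, edgeR adjusted p = 0.0227, n = 6 each). It was the fourth transcript by p, and its call held under 14 of 21 alternatives, over which the log2 fold change ran from 1.89 to 2.30 and the adjusted p from 2.84e-10 to 0.542. In other libraries it was again higher in fed leaves at 6 h, with a log2 fold change of 1.87 ± 0.23 (edgeR adjusted p = 0.000125), and at 24 h, with 2.07 ± 0.34 (adjusted p = 0.000345). At 24 h it stood at 0, 2.75 and 1.51 CPM in CT and at 1.41, 1.78 and 2.42 CPM in PT, against 0.232 to 0.602 CPM in the 6 unfed libraries. Replicate 1 of CT had no read of it, but few reads weigh much in that library, where 4 reads of another transcript, C238651, gave 0.984 CPM. The value of 0 can therefore not be placed below the unfed libraries. Without replicate 1 of CT the log2 fold change of scaffold14635 at 24 h was 2.18 (edgeR adjusted p = 8.7e-06). Its level in simulated-egg leaves at 1 h was 7.18, 1.96 and 1.53 CPM, against 0.997, 0.900 and 0.447 CPM in untreated C leaves. These groups did not overlap, and the difference did not pass the test (adjusted p = 0.207).

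The second riser by this rule, scaffold6593, stood at 0.419, 0.700 and 0.488 CPM in CC and at 1.22, 0.623 and 0.667 CPM in PC. In CT it stood at 1.96, 2.20 and 2.50 CPM and in PT at 2.86, 1.69 and 2.91 CPM. Here too replicate 1 of PC was the highest unfed library, below all 6 fed ones. The rise was 3.50-fold (log2 fold change 1.81 ± 0.23 SE, edgeR adjusted p = 0.0259), and the call held under 13 of 21 alternatives, with log2 fold changes from 1.56 to 2.06 and adjusted p from 5.7e-09 to 0.542. It was also higher in fed leaves at 6 h, by 2.27 ± 0.36 on the log2 scale (adjusted p = 0.00109), and at 24 h, by 2.85 ± 0.27 (adjusted p = 8.33e-07). The levels were 7.01 ± 3.77 CPM in CT against 1.86 ± 1.13 CPM in CC at 6 h, and 6.60 ± 2.05 against 0.814 ± 0.253 CPM at 24 h (SD, n = 3 each). In leaves with earlier eggs, PT stood at 7.18 ± 1.18 against 1.12 ± 0.661 CPM in PC at 6 h, and at 3.93 ± 0.480 against 0.591 ± 0.241 CPM at 24 h. The highest library of 24 h was replicate 1 of CT at 8.36 CPM, and without it the log2 fold change at 24 h was 2.71 (adjusted p = 2.76e-07). The feeding response of 24 h less that of 1 h was 0.98 ± 0.35 on the log2 scale and did not pass the test (adjusted p = 0.123, and 0.114 without that library). In replicate 1 of P at 1 h it stood at 31.01 CPM, against 2.47 and 1.71 CPM in the other P libraries and 1.75, 0.625 and 0.311 CPM in C.

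Of the fallers, C611311 had the smallest p. It stood at 7.57, 7.03 and 8.81 CPM in CC and 7.40, 6.75 and 7.60 CPM in PC, and at 4.28, 3.32 and 4.22 CPM in CT and 4.29, 3.47 and 3.72 CPM in PT. All fed libraries, at 3.32 to 4.29 CPM, lay below all unfed ones, at 6.75 to 8.81 CPM. CC and PC overlapped, and so did CT and PT. The level was 1.93-fold lower in fed leaves (log2 fold change -0.95 ± 0.13 SE, edgeR adjusted p = 0.0318). The call held under 11 of 21 alternatives, with log2 fold changes from -0.998 to -0.911 and adjusted p from 4.61e-10 to 0.542. At 24 h it was lower again, by -1.20 ± 0.24 (adjusted p = 0.00178), and at 6 h the difference of -0.62 ± 0.26 did not pass the test (adjusted p = 0.188).

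The second faller, C238651, stood at 1.21, 0.891 and 1.21 CPM in CC and at 0.592, 1.04 and 0.558 CPM in PC, beside 0.487, 0.237 and 0.354 CPM in CT and 0.222, 0.220 and 0.178 CPM in PT. The highest fed library, replicate 1 of CT, came close to the lowest unfed one, replicate 3 of PC. The fall was 3.25-fold (log2 fold change -1.70 ± 0.23 SE, edgeR adjusted p = 0.0345), and its call held under 12 of 21 alternatives, with log2 fold changes from -1.85 to -1.55 and adjusted p from 1.48e-06 to 0.542. Its level in untreated C leaves at 1 h, 0.258, 1.07 and 1.15 CPM, spanned the range from fed to unfed leaves.

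**Figure D3:**
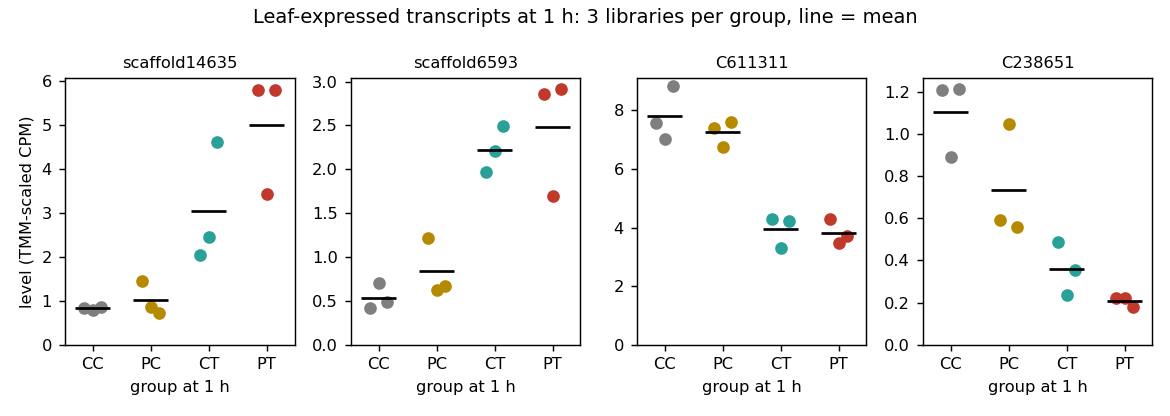
Level of the 2 risers and 2 fallers named by the rule in each of the 3 libraries per group at 1 h, in CPM over TMM-scaled library sizes (points), with the group mean (line) and each axis starting at 0. For scaffold14635 all CT and PT points, from 2.06 to 5.81 CPM, lie above all CC and PC points, and for C611311 all CT and PT points, from 3.32 to 4.29 CPM, lie below.

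The median response was close in leaves without and with earlier simulated eggs. For the 219 risers the median log2 fold change was 1.34 for CT against CC and 1.26 for PT against PC, and for the 69 fallers -0.99 and -1.06. The difference between the 2 responses had a median of -0.04 over the risers and -0.15 over the fallers, beside -0.03 over all leaf-expressed transcripts. No transcript had a called difference between the responses (0 of 131927, or 0%, edgeR interaction test), and DESeq2 called 1. Of the 131927, 2851 had an unadjusted edgeR p of 0.05 or less, a share below 0.05. Of the called transcripts themselves, 1 of 219 leaf-expressed risers and 2 of 69 fallers reached that unadjusted p, beside 1082 of all 71157 leaf-expressed transcripts tested. By itself, neither response held any call at 3 against 3 libraries (0 in each, edgeR; 9045 transcripts without and 9211 with earlier eggs at an unadjusted p of 0.05 or less). A missed threshold does not show that the responses were alike, and the members were chosen on the mean of both.

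Among the less abundant transcripts, 197 were higher in fed leaves and 5 lower, or 0.324% and 0.00823% of the 60770 tested. The risers had a median log2 fold change of 1.99, beside 0.11 over all less abundant transcripts tested. The class is defined by a low level in untreated leaves, among them the 3 CC libraries compared here, and a transcript can pass the count filter through its fed libraries. Both favour transcripts that are higher in fed leaves, so nothing is read from the excess of risers or from the median of 0.11. The mean level of the 197 had a median of 0.686 CPM in fed and 0.193 CPM in unfed leaves. In the 9 untreated C libraries 17 of the 197 had a median of 0 and 75 one under 0.1 CPM. At least 4-fold rises were fitted for 97 and at least 8-fold rises for 31. Fitted folds at this level rest on few reads, and 9 transcripts had 5 or fewer reads in the 6 unfed libraries together. The 188 others had log2 fold changes from 1.02 to 4.28. One riser had no read in any unfed library and 74 reads over the 6 fed ones, with a read in each, which makes it at least 20.3-fold higher when 3 reads over the 6 unfed libraries are taken as the limit. In 139 of the 197 all 6 fed libraries lay above all 6 unfed ones, which held for 0.813% of the less abundant transcripts tested. Summed over the 197, the level was 36.1 to 42.1 CPM in 5 unfed libraries and 74.0 CPM in replicate 1 of PC, against 105 to 238 CPM in the 6 fed libraries. Larvae were on the fed leaves, and whether any of these reads came from the insect was not tested.

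The 5 less abundant fallers are named because they are few, and were chosen after their values were seen. They are C427875, C473087, scaffold11648, C110585 and C615425, with log2 fold changes of -1.08, -1.93, -1.18, -1.80 and -3.24. In the first 4, all fed libraries lay below all unfed ones, as in 0.142% of the less abundant transcripts tested. For example, scaffold11648 stood at 0.477 to 0.641 CPM in the unfed and 0.194 to 0.284 CPM in the fed libraries. C110585 had only 6 to 20 reads in the unfed and 2 to 6 reads in the fed libraries. The fall of C615425 rests on the leaves with earlier eggs, PC and PT. It stood at 2.02, 0.880 and 4.27 CPM in PC and at 0.0246, 0.453 and 0.225 CPM in PT, but had at most 2 reads in any CC library and no read in the 3 CT libraries, where 3 reads would have given 0.0457 to 0.0711 CPM. In the priming set it stood at 0.402, 0.135 and 5.19 CPM in P at 1 h and at most 0.0369 CPM in C. Its largest value of the series was 675 CPM, in 1 library of P at 6 h, while another library of that group was at 0 CPM. Its call held under 6 of 20 alternatives.

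Other leaves were harvested 6 h and 24 h after larvae had been placed, and their libraries, none of them shared with 1 h, give the later level of the same transcripts. At 6 h, 62 of the 219 leaf-expressed risers were called higher (28.3%, beside 4.46% of all leaf-expressed transcripts) and 1 lower (background 2.90%). Their median log2 fold change was 0.35, against -0.04 over all leaf-expressed transcripts. At 24 h, 74 were higher (33.8%, background 8.40%) and 14 lower (6.39%, background 11.9%), with a median of 0.53 against -0.11. Without replicate 1 of CT at 24 h, 102 were higher and 18 lower, with 14.5% of all leaf-expressed transcripts higher and 19.0% lower. The count of 14 lower ranged from 6 to 21 over the alternatives, with 6 without replicate 2 of PC, replicate 1 of PT or replicate 3 of PT at 24 h. Taking both hours, 51 risers were called higher at each (beside 3.19% of all leaf-expressed transcripts tested at both), 11 at 6 h but not at 24 h, 23 at 24 h but not at 6 h, and 120 were called at neither. When replicate 1 of CT at 24 h was left out, 57 were called higher at each hour, 45 at 24 h but not at 6 h, and 94 at neither.

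The summed level of the 219 risers showed the later responses without overlap. It was 775 to 1250 CPM in unfed and 1687 to 2483 CPM in fed libraries at 6 h, and 679 to 918 CPM in unfed and 2025 to 2867 CPM in fed libraries at 24 h. A sum follows the most abundant members, and transcript by transcript the responses parted. For the 51 risers called at both later hours, the median was 1.66 at 1 h, 1.57 at 6 h and 2.19 at 24 h (log2 fold change). The 120 called at neither had 1.19, 0.18 and 0.15. The 13 risers that were not called at 6 h and lower at 24 h had 1.01, -0.37 and -1.13, and their number moves with the count of 14 above. Without replicate 1 of CT at 24 h, the 57 then called higher at both hours had 1.65, 1.51 and 1.90. The 94 then called at neither had 1.19, 0.14 and 0.13, and the 17 then lower at 24 h only had 0.97, -0.36 and -0.86. Scaffolds were 28 of the 51 and 36 of the 120.

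The shares called later were also counted by the size of the rise at 1 h, without a test of the difference between sizes. Of the 26 risers of at least 4-fold, 17 were called higher at 6 h (65.4%) and 20 at 24 h (76.9%). Of the 142 between 2-fold and 4-fold, 42 (29.6%) and 49 (34.5%) were. Of the 51 below 2-fold, 3 (5.88%) and 5 (9.80%) were, beside 4.46% and 8.40% of all leaf-expressed transcripts. Without replicate 1 of CT at 24 h, the 3 counts of 24 h were 22, 68 and 12, beside 14.5% of all leaf-expressed transcripts. The 12 of 51 then lay above that share. The responses themselves were compared between hours over all transcripts. Less the response at 1 h, the response at 6 h was lower for 19 of the 219 (8.68%, background 0.0787%) and that at 24 h lower for 57 and higher for 9 (background 2.59% and 2.18%). With that library left out, 72 were lower and 10 higher (background 4.58% and 4.76%). Since the risers were chosen for a high value at 1 h, a lower value later is built into this comparison, and it is given as a description only.

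The 69 leaf-expressed fallers were followed in the same way. At 6 h, 7 were lower (10.1%, background 2.90%) and 3 higher (4.35%, background 4.46%). The log2 fold changes had a median of -0.36, against -0.04 over all leaf-expressed transcripts. At 24 h, 32 were lower (46.4%, background 11.9%) and 2 higher (2.90%, background 8.40%), with a median of -0.82 against -0.11. Leaving out single libraries changed the count at 6 h to between 2 and 8, with 2 without replicate 1 of PC or replicate 2 of CT, and DESeq2 called 13. At 24 h it ranged from 27 to 40 over the alternatives, with 40 without replicate 1 of CT. The background without that library was 19.0% lower. For the 26 fallers not called at 6 h and lower at 24 h, the median was -1.19 at 1 h, -0.57 at 6 h and -1.44 at 24 h (log2 fold change). The 32 called at neither hour had -0.92, -0.23 and -0.20. Without replicate 1 of CT at 24 h, the first set held 33 fallers, with -1.13, -0.54 and -1.34. The second then held 22, with -0.93, -0.13 and -0.09. Of the less abundant risers, 45 of the 151 tested at 6 h (background 4.97%) and 56 of the 134 tested at 24 h (background 13.2%) were higher. Without replicate 1 of CT at 24 h, 68 of 154 were (background 14.4%). This class is defined by a low level in leaves that include CC of both hours, and the count filter can be passed through fed libraries. These shares are therefore in part built in, in the background too.

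Read in the other direction, the lists of the later hours, chosen in other libraries, leaned the same way at 1 h but by little. Of the 3170 leaf-expressed transcripts called higher at 6 h, 80.8% had a higher level in fed leaves at 1 h, beside 43.01% of all leaf-expressed transcripts, and their log2 fold changes at 1 h had a median of 0.30. The 2060 called lower at 6 h had a median of -0.26, and 16.4% of them were higher at 1 h. For the lists of 24 h the medians at 1 h were 0.17 over 5978 risers and -0.20 over 8492 fallers. Without replicate 1 of CT at 24 h these lists held 10301 and 13506 transcripts, with medians at 1 h of 0.10 and -0.18. The 62 risers shared by 1 h and 6 h are 28.3% of the early list and 1.96% of the later one. Per library of 1 h, the risers of 6 h had a median log2 level of -0.18 to 0.37 in the unfed and -0.03 to 0.61 in the fed libraries, so these ranges overlap. Replicate 1 of PC was the highest unfed library at 0.37, and replicate 1 of CT the lowest fed one at -0.03.

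**Figure D4:**
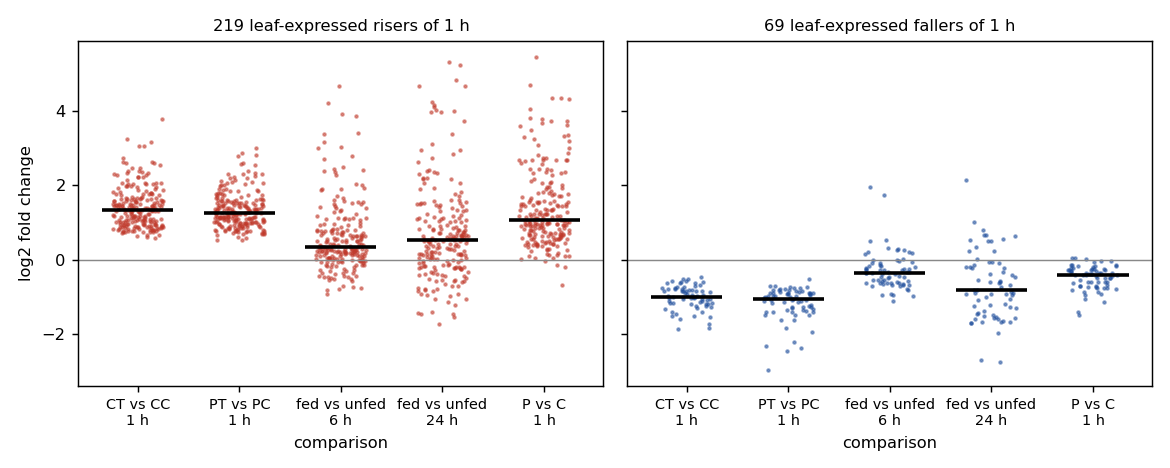
Log2 fold changes of the 219 leaf-expressed risers (left) and 69 fallers (right) of 1 h in 5 comparisons, 1 point per transcript, with the median as a bar. The first 2 comparisons use the libraries on which the transcripts were chosen; in the others the risers' medians are 0.35 at 6 h, 0.53 at 24 h and 1.08 for simulated eggs against untreated leaves at 1 h.

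The early response to feeding was also set beside that to simulated eggs at the same hour, in the 6 P and C libraries of the priming set, which share no library with the feeding comparison. P leaves were harvested 1 h after the scratch and the secretion, and C leaves were untreated. In P against C at 1 h, 215 of the 219 leaf-expressed risers of feeding were higher, with a median log2 fold change of 1.08, beside -0.01 over all leaf-expressed transcripts. Few passed the test in that comparison of 3 against 3 libraries, where 9 of the 219 were called higher (4.11%, background 0.0801%). In the same direction, 140 of the 219 had an unadjusted edgeR p of 0.05 or less, as had 3264 of all 71158 leaf-expressed transcripts. The size rested in part on replicate 1 of P. Without it, 183 of the 219 were higher, with a median of 0.54, and 4 were called. Without any 1 of the 3 C libraries none was called, while the median stayed between 1.00 and 1.20, and DESeq2 called 62 on all libraries. Of the 69 fallers, 66 were lower in P, with a median of -0.40 and no call (0 of 69, background 0.00141%, edgeR). In that direction, 17 of the 69 had an unadjusted edgeR p of 0.05 or less, as had 1581 of all 71158, and DESeq2 called 2. Of the less abundant risers, 141 of the 145 tested were higher in P, with a median of 1.64, and 5 were called (background 0.144%). Without replicate 1 of P, 126 of 154 were higher, with a median of 0.91, and 1 was called. Over all less abundant transcripts tested, 30197 of 55579 were higher in P, with a median of 0.06. The class is defined by a low level in leaves that include these C libraries, and a transcript can pass the count filter through P. Both favour higher levels in P, so this lean is in part built in.

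The summed level of the 219 risers was 745 to 871 CPM in C and 1401, 1522 and 4214 CPM in P at 1 h, with replicate 1 at the top and the 2 others near the lowest fed library of the feeding comparison, 1503 CPM. At 6 h after simulated eggs the groups overlapped, with 806 to 1158 CPM in C and 1072 to 1195 CPM in P. At 24 h P stood at 1018 to 2263 CPM and C at 719 to 1002 CPM.

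From the other side, all 57 leaf-expressed transcripts called higher in P against C at 1 h were also higher in fed leaves at 1 h, with a median log2 fold change of 1.52. Of these, 9 were called, which is 15.8% of the egg list and 4.11% of the feeding list, beside 0.308% of all leaf-expressed transcripts. The fed libraries lay all above the unfed ones in 1 of the 57, beside 0.490% of all leaf-expressed transcripts tested. All 72 less abundant egg risers that were tested in fed leaves were higher too, with a median of 2.59, and 5 were called (6.94%, background 0.324%). Over all less abundant transcripts tested, 60.2% were higher in fed leaves. The limits given above for this class hold here too. Without replicate 1 of P, the egg comparison called 17 leaf-expressed transcripts higher, and all of them were higher in fed leaves too, with a median of 1.54, and 4 were called there. Over 21 alternatives of the feeding fit, 55 to 57 of the 57 were higher, with a median of 1.25 to 1.90. Fed leaves and egg-treated leaves were both wounded, and the shares of wound and insect secretion in either response cannot be told apart in this design.

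**Figure D5:**
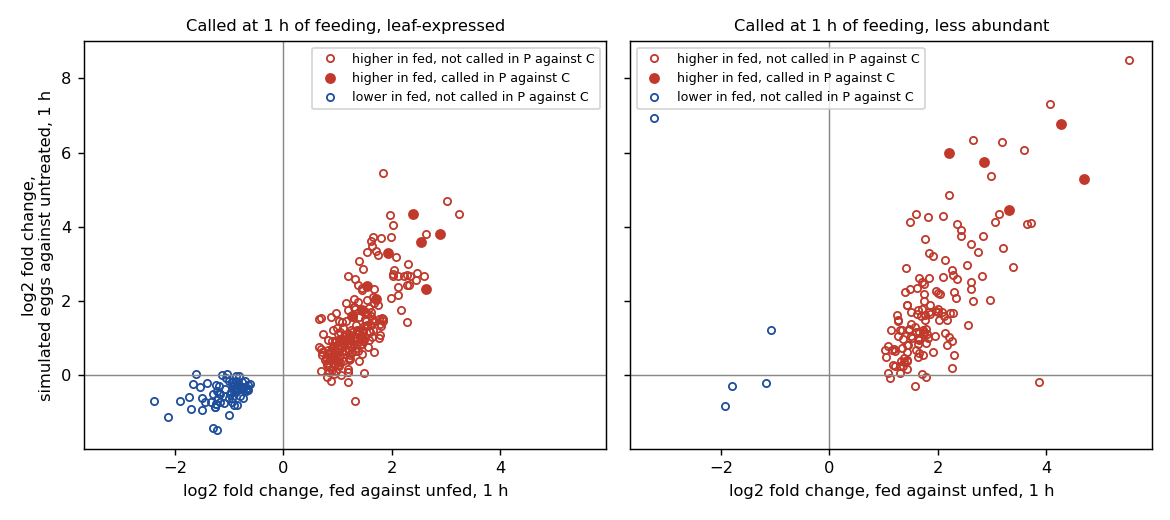
Log2 fold change of P against C (vertical axis) against that of fed against unfed leaves (horizontal axis), both at 1 h, for transcripts called in the feeding comparison, leaf-expressed (left) and less abundant (right, those tested in both). Filled points were called in both comparisons. Of the leaf-expressed risers 215 of 219 lie above 0 on the vertical axis, and 66 of 69 fallers below.

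Harvest time was looked at in untreated C leaves, comparing those of 6 h with those of 1 h. The leaf-expressed risers had a median log2 change of 0.12, with 3 called higher (background 7.67%) and 6 lower at 6 h. The fallers had a median of -0.32, and 12 of the 69 (17.4%) were called lower at 6 h, beside 6.30% of all leaf-expressed transcripts. Fed and unfed leaves of 1 h had the same labelled harvest time.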

How the data were processed

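The deposited values are raw read counts of the authors, given as whole numbers per assembled sequence and library. Per the labels' protocols, libraries were made from polyadenylated RNA, and the submitters' processing notes name CASAVA and Trimmomatic 0.33. How reads were assembled, aligned and counted, and whether strand was used, is not given in these sources, so antisense and closely related sequences cannot be told apart. Each column was assigned by its number in the labels, and 0 were left out.

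Each comparison used its own libraries, 12 for feeding at each hour and 24 for differences between hours. Counts were filtered with filterByExpr (minimum count 10, minimum total 15) and scaled with TMM. They were tested with the quasi-likelihood functions of edgeR 4.0.16 in R 4.3.3. Feeding at each hour had egg treatment as a block. Differences between hours, the interaction, and the folds of CT against CC and PT against PC came from fits with 1 mean per group. Simulated eggs were tested in a fit of the 18 priming libraries. Alternatives used DESeq2 1.42.0 and settings listed at the end. SEs are the log2 fold change over the square root of F. Levels (CPM) divide the authors' deposited counts by library sizes scaled with TMM over all 54 libraries, and library medians use log2 of CPM plus 0.05. The leaf-expressed class uses CPM from column totals. No pair of libraries within a group of 1 h agreed within sampling noise, the lowest chi-square per degree of freedom being 18.7. Named are the 2 risers and 2 fallers with the smallest p among called leaf-expressed transcripts whose fed and unfed libraries do not overlap, plus counts of 5 or fewer. The comparison, the leaf-expressed class and the lists were chosen with earlier results of these data known.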

Additional observations from a re-analysis of the deposited data

Results flagged for a closer look

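Of 40 sets of 6 libraries looked at, 8 held a library far from the other 5 by Dixon's test at the 95% level. Chance does this for about 1 set in 20 of independent, normally spread values. The 40 sets share libraries, and several describe the same risers, so the 8 cannot be set against that rate. Replicate 1 of PC stood out in 5 of the 8. It had the highest unfed level of scaffold14635, 1.44 CPM, and of scaffold6593, 1.22 CPM. Its summed level of the 219 leaf-expressed risers was 1453 CPM, that of the less abundant risers 74.0 CPM, and its median log2 level of the leaf-expressed risers 0.65 above the mean of the unfed libraries. Replicate 1 of CT had the lowest such median among the fed libraries, 0.74. The 10 most abundant transcripts held 19.2% of the reads in replicate 2 of CC, more than in the other unfed libraries. C110585 stood at 0.0805 CPM in replicate 3 of CT, the highest CPM of the fed libraries. That value is 5 reads, and replicate 3 of PT held 6 reads at 0.0562 CPM, so the flag rests on few reads.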

How the results depend on the processing

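The number of transcripts called at 1 h depended on the tool and on single libraries, and the causes were not tested. For all transcripts it was 490, but 3871 with DESeq2's Wald test, 1730 with all 36 triggering libraries in 1 fit and 3447 without CT 24 h replicate 1 in that fit. For leaf-expressed transcripts it was 288, and 2375, 851 and 2177 under these settings. In leaves without prior eggs only, and in leaves with prior eggs only, it was 0 for all and 0 for leaf-expressed transcripts, with 6 libraries in place of 12. Leaving out 1 library gave 0 to 2381 for all and 0 to 1348 for leaf-expressed transcripts. DESeq2 size factors, no filter on low counts, no egg block and other limits for the leaf-expressed class kept the counts within 1.5 times.

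The labels do not say what a replicate number stands for. At 1 h, 13 of 18 same-numbered pairs deviated together with a correlation over 0.1, in a range of -0.12 to 0.41, among them every pair of CC, PC and PT with each other. In 27 of 36 looks at a library and another group, its closest library there bore the same number, and for 5 of 12 libraries this held in all 3 other groups. This is a hint from the data that numbers may mark something shared, and what that is was not tested. Since not every pair passed 0.1, the numbers were not used as pairs. With a replicate block the counts at 1 h were 2821 for all and 1866 for leaf-expressed transcripts, 976 higher and 890 lower, and 448 in place of 139 for simulated eggs.

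The interaction gave 1 call with DESeq2 in place of 0. The difference in feeding response of 6 h less 1 h gave 240 calls, 1427 with DESeq2 and 98 to 568 without 1 library. That of 24 h less 1 h gave 5145, 9892 with DESeq2, 3309 with no filter on low counts and 2883 to 9193 without 1 library. Feeding at 24 h gave 22995, and 17262 to 35518 without 1 library, the highest without CT 24 h replicate 1. Simulated eggs gave 139, 1515 with DESeq2, and 0 to 261 without 1 library, with 0 without C 1 h replicate 3. The difference in total count ranged from 5.33e+06 to 1.52e+07 without 1 library, and passed the exact permutation test without PT 1 h replicate 1 (p = 0.005). Of the named transcripts' alternatives, 93 kept the call and 93 lost it. None reversed its direction, which is largely built in, since the alternatives reuse libraries on which the transcripts were chosen. Depth limits the less abundant transcripts most, since 9 of the 197 risers had 5 or fewer reads in the unfed libraries together.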
